A study of Mus musculus with 2 samples.

Results

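The ABCA transporters are membrane proteins that use ATP to move lipids across or out of membranes. The 10 genes described here are 9 ABCA genes (*Abca8a*, *Abca8b*, *Abca9*, *Abca6*, *Abca5*, *Abca1*, *Abca2*, *Abca3* and *Abca7*) and *Abcg1*, a sterol transporter that works alongside ABCA1, out of 24532 genes in the count table. They were chosen by symbol for 1 measured value, the level of *Abca8a*, which was much lower after *Vgll3* knockdown, so every difference between the conditions given for them is a description and carries no test. Mouse cardiac myofibroblasts, the collagen-producing cells that form after myocardial infarction (MI), came from infarcted hearts 3 days after MI. The mice were C57BL/6 in the labels (the methods name C57BL/6J for work on isolated myofibroblasts), male and 8 to 10 weeks old at surgery. Both groups received 12.5 nM siRNA for 72 h, a control siRNA in one (siCtrl) and an siRNA against *Vgll3* in the other (si*Vgll3*), and each group is 1 library. *Vgll3* encodes a cofactor of the TEAD transcription factors. The knockdown rests on a single siRNA, the cells had been depleted of CD45-positive leukocytes and grown in adherent culture, and the number of animals behind each library is not given in the sources used here.

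Each ABCA protein is a full transporter in 1 chain, with a pair of membrane-spanning domains and a pair of ATP-binding domains. ABCA1 passes cholesterol and phospholipid from the cell to lipid-poor apolipoprotein A-I, the first step in making high-density lipoprotein (HDL), and ABCG1 adds sterol to particles that already carry lipid. Transcription of both is switched on by the liver X receptors (LXRs), nuclear receptors that bind oxidised sterols. *Abca8a*, *Abca8b*, *Abca9*, *Abca6* and *Abca5* form a separate branch of the family whose substrates are less well known, and *Abca8a* is widely seen as a transcript of tissue fibroblasts, those of the heart included.

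The 5 genes of that branch lie side by side on chromosome 11, all on the minus strand, between chr11:109932190-110337716 (mm10), a span of 406 kb. From the lowest coordinate the order is *Abca8b* (chr11:109932190-109995845), *Abca8a* (chr11:110025634-110095978), *Abca9* (chr11:110100749-110168196), *Abca6* (chr11:110176820-110251776) and *Abca5* (chr11:110269369-110337716). Each has 39 exons in its GENCODE transcript of longest coding sequence. Their coding lengths are nearly the same, from 4860 bases in *Abca8a* and *Abca8b* to 4926 bases in *Abca5*. Aligned coding sequences were 74.8% identical between *Abca8a* and *Abca8b*, 71.0% between *Abca8a* and *Abca9*, 65.9% between *Abca8a* and *Abca6* and 60.5% between *Abca8a* and *Abca5*. *Abca8a* and *Abca8b* were the closest of the 10 pairs in the cluster. The other members lie elsewhere: *Abca1* at chr4:53030787-53159895, *Abcg1* at chr17:31057675-31117988, *Abca2* at chr2:25428703-25448540, *Abca3* at chr17:24351950-24410201 and *Abca7* at chr10:79996494-80015572. Small RNA genes lie within *Abcg1*, *Abca2* and *Abca3*, and *D330041H03Rik* overlaps *Abca3* on the other strand.

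How alike these genes are, and so whether reads can be told apart, is seen at the first Walker A motif, the glycine-rich loop that holds ATP. The codons of the motif are in capitals with 3 flanking bases on each side, read 5′ to 3′ from the minus strand in exon 12 of each GENCODE transcript (GRCm38).
Abca8a, chr11:110071460-110071489: cttGGTCACAGTGGAGCTGGGAAATCAaca
Abca8b, chr11:109969102-109969131: cttGGTCACAGTGGAGCTGGGAAATCAaca
Abca9, chr11:110146948-110146977: cttGGTCACAGTGGAGCTGGGAAAACCacc
Abca6, chr11:110220118-110220147: ctgGGCCACAGTGGAGCGGGCAAATCTtca
Abca5, chr11:110306285-110306314: ctgGGCCACAGTGGAACAGGAAAAAGCaca
Compared with *Abca8a*, these 30 bases had 0 differences in *Abca8b*, 3 in *Abca9*, 6 in *Abca6* and 8 in *Abca5*. Longer shared runs were rare. No 100-base stretch of the *Abca8a*, *Abca8b*, *Abca9*, *Abca6* or *Abca5* transcript occurred in a transcript of another gene, and at 75 bases only *Abca8a* (0.649% of its stretches) and *Abca8b* (0.490%) had any, all shared with each other. At 36 bases, the shortest read the authors kept, 2.78% of the *Abca8a* stretches were also in the *Abca8b* transcript, so most stretches of that length were in only 1 of the pair. The read length and the treatment of reads with several matches are not given in the sources used here.

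The siCtrl library held 140815237 reads on genes and the si*Vgll3* library 125789276. The ratio between the libraries is given as M, the log2 of TPM in si*Vgll3* over TPM in siCtrl, where TPM is a level scaled for transcript length and library size, and A is the log2 of the mean TPM. As on the MA plot of the study, a gene is called lower at M < −0.5 and A > 0, and here higher with the sign of M reversed. Each M carries the 95% Clopper-Pearson interval of its read counts. It covers counting error only, since reads are not independent molecules, and compares 2 libraries, not 2 conditions. Among 11754 genes with A > 0 the median M was −0.05, 11.4% were lower and 5.73% were higher. *Vgll3* itself went from 42925 to 16524 reads and from 202 to 84.0 TPM, an M of −1.27 (−1.29 to −1.24). All 7 fibroblast and all 5 myofibroblast markers had A > 0. Of the myofibroblast markers, *Acta2* was at 3296 TPM with siCtrl and 3866 with si*Vgll3* (M 0.23), and *Postn* at 696 TPM with siCtrl (M −1.22). *Tagln* (M 0.52) and *Cnn1* (M 1.13) were higher, and *Myl9* was at 0.03. Of 8 leukocyte markers, *Ptprc*, *Adgre1* and *Cd3e* had 0 reads in both libraries, while *Lyz2* had 738 reads in siCtrl and *Cd68*, *Csf1r*, *Cd14* and *Cd79a* also had reads. Of 5 cardiomyocyte markers, *Myh6*, *Actn2*, *Nppa* and *Myl2* had 0 reads, while *Tnnt2* had 4574 in siCtrl.

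All 10 transporters had A > 0. Of these, 4 were lower (*Abca8a*, *Abca8b*, *Abca9* and *Abca7*), 0 were higher and 6 lay between. The same 4 had their whole interval below −0.5, which 8.31% of all genes did, and 0 had it above 0.5, which 3.76% did. Because the list was drawn up for the low M of *Abca8a* in this very contrast, nothing is read from these counts. The nearest gene outside the threshold was *Abca3* at −0.50 (just above −0.5 before rounding, interval −0.60 to −0.39), and the nearest inside was *Abca7* at −0.68. The summed level of the 10 genes was 74.9 TPM with siCtrl and 41.0 with si*Vgll3*.

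**Figure D1:**
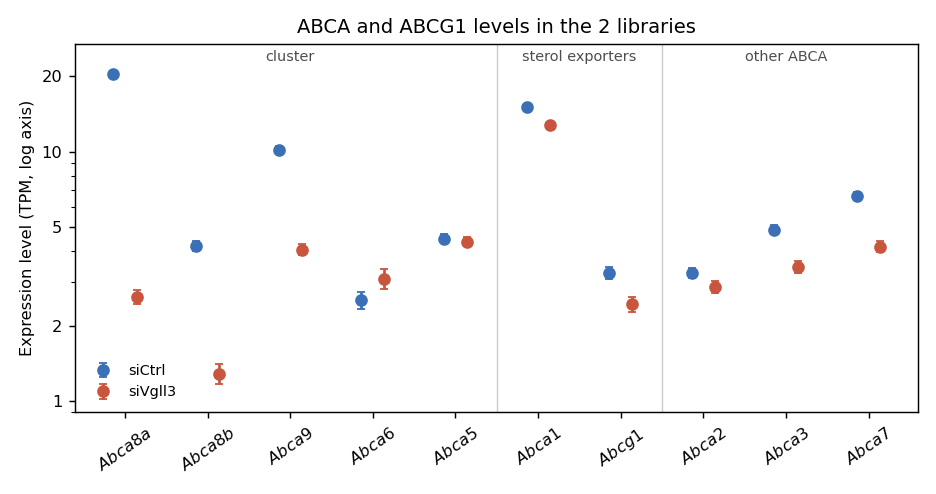
Levels of the 10 transporters in TPM (log axis) in siCtrl (blue) and si*Vgll3* (red), 1 library each, with 95% counting intervals as bars. *Abca8a* is the highest point of siCtrl at 20.4 TPM and is at 2.61 TPM in si*Vgll3*, while *Abca5* is at 4.48 and 4.35 TPM.

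*Abca8a*, whose human counterpart has been linked to cholesterol efflux and sphingomyelin, had 7332 reads with siCtrl against 868 with si*Vgll3*. Its level was 20.4 TPM with siCtrl and 2.61 with si*Vgll3*, so that 12.8% remained, and M was −2.97 (−3.07 to −2.87). This is a level 7.82-fold lower (7.29 to 8.40), at rank 13 from the lowest M of the 11754 genes. *Abca8a* was thus the most abundant of the 10 transporters in siCtrl and stood at place 8 in si*Vgll3*. It made up 27.3% of their summed TPM with siCtrl and 6.38% with si*Vgll3*. In bulk RNA of this kind, fewer cells that express a gene and less RNA per cell cannot be told apart.

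*Abca8b*, the closest relative of *Abca8a*, had 1650 reads with siCtrl against 469 with si*Vgll3*. Its level was 4.18 TPM with siCtrl and 1.28 with si*Vgll3*, M −1.70 (−1.85 to −1.55), or 3.26-fold lower. It was the least abundant of the 10 in si*Vgll3*. The antisense gene *Gm11697* overlaps *Abca8b* on the other strand. The kit kept the strand, but whether the counting used it is not stated.

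*Abca9*, a lipid-responsive transporter of uncertain substrate, had 4073 reads with siCtrl against 1495 with si*Vgll3*. Its level was 10.2 TPM with siCtrl and 4.03 with si*Vgll3*, M −1.33 (−1.42 to −1.25), or 2.52-fold lower. *Abca8a*, *Abca8b* and *Abca9* are neighbours on the chromosome and were the only 3 of the 10 with M below −1.

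*Abca5*, found in late endosomes and lysosomes, differed little between the libraries, with 2365 and 2124 reads in siCtrl and si*Vgll3*. Its level was 4.48 TPM with siCtrl and 4.35 with si*Vgll3*, M −0.04, and the interval (−0.13 to 0.04) includes 0. It was place 6 of the 10 in siCtrl and place 2 in si*Vgll3*, where its interval overlapped that of *Abca7*.

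*Abca6*, the least abundant of the 10 in siCtrl, gave opposite directions in the 2 deposited measures. It had 629 reads with siCtrl against 468 with si*Vgll3*, which gives a log2 ratio of −0.26 in CPM, counts scaled to the library total. By contrast its TPM was 2.54 with siCtrl against 3.09 with si*Vgll3*, an M of 0.28 (0.11 to 0.46). That interval has the width given by the counts but is placed at M, so the ratio of −0.26 lies outside it. No direction is given for this gene.

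The TPM of *Abca6* corresponded to 248 reads per TPM in siCtrl and 152 in si*Vgll3*, whereas for *Abca8a* these were 359 and 332. Over the 11712 genes with A > 0 whose count reached 10 in each library, M minus the log2 ratio of CPM had a median of −0.05, and it was 0.55 for *Abca6*. Only 8 genes, *Abca6* included, lay as far from the median (0.0683%), and the other 9 transporters lay within 0.02 of it. *Abca6* has 3 transcripts listed in the deposited tables. Whether the split of reads between them set its TPM was not tested.

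**Figure D2:**
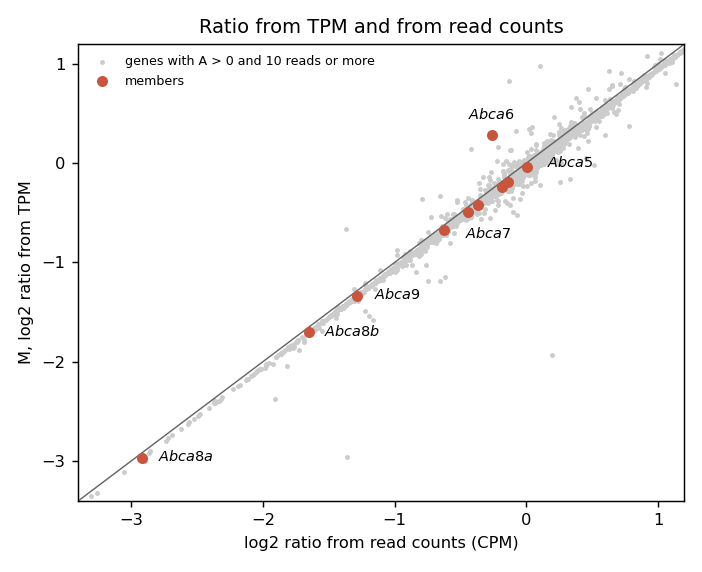
M from TPM (vertical) against the log2 ratio of CPM (horizontal) for genes with A > 0 whose count reached 10 in each library, with the 10 transporters in red and the line of equality. *Abca6* lies above the line at 0.28 against −0.26, and the other 9 follow the main band.

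Along the chromosome, M therefore stepped from −1.70 at *Abca8b* to −2.97 at *Abca8a* and back to −1.33 at *Abca9*. It was then 0.28 at *Abca6*, for which no direction is given, and −0.04 at *Abca5*. The difference in M between *Abca8a* and *Abca8b* was 1.26 with a counting SE of 0.09, and between *Abca9* and *Abca5* it was 1.29 with a counting SE of 0.06. *Abca8b* and *Abca9*, on either side of *Abca8a*, differed by 0.37 with a counting SE of 0.09. None of these intervals overlapped. The summed level of the 5 cluster genes was 41.8 TPM with siCtrl and 15.4 with si*Vgll3*, and without *Abca8a* it was 21.4 and 12.8 TPM.

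Of 8 listed neighbours outside the cluster, 7 had reads, 5 had A > 0, and of those 0 were lower and 0 were higher, with a median M of 0.05. On the side of *Abca8b*, *Fam20a*, a secreted pseudokinase, was at 36.5 TPM with siCtrl and 25.9 with si*Vgll3*, an M of −0.49 (−0.55 to −0.44). *Prkar1a*, a regulatory subunit of protein kinase A, was at 0.05. On the side of *Abca5*, *Map2k6*, a kinase upstream of p38, was at 0.07 (−0.09 to 0.22). The genes next to the cluster on either side were thus nearer to 0 than *Abca8a*, *Abca8b* or *Abca9*. *Kcnj2*, an inward-rectifier potassium channel 970 kb from the *Abca8a* start, had an M of −0.76 but A below 0.

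**Figure D3:**
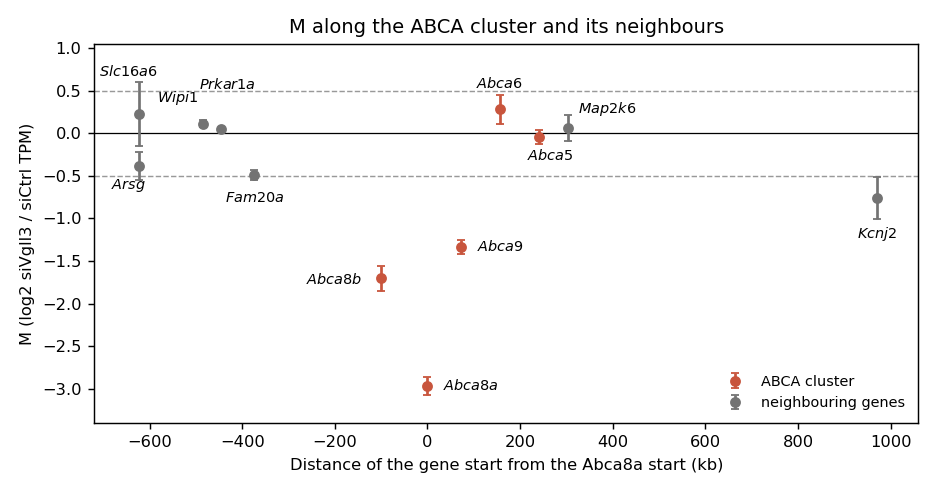
M with its 95% counting interval for the 5 cluster genes (red) and the neighbouring genes with reads (grey), against the distance of each gene's start from that of *Abca8a* in kb. Dashed lines mark −0.5 and 0.5, *Slc16a6* and *Kcnj2* have A below 0, and *Abca8b*, *Abca8a* and *Abca9* lie between −2.97 and −1.33.

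The 2 sterol exporters were closer to the rest of the genes. *Abca1* had 9843 reads with siCtrl against 7716 with si*Vgll3*, a level of 15.0 and 12.7 TPM, and an M of −0.24 (−0.28 to −0.20), or 1.18-fold lower. *Abcg1* had 1214 reads with siCtrl against 840 with si*Vgll3*, a level of 3.27 and 2.44 TPM, and an M of −0.42 (−0.55 to −0.29), or 1.34-fold lower. Neither passed the threshold. *Abca1* became the most abundant of the 10 in si*Vgll3*, at 31.0% of their summed TPM against 20.1% in siCtrl, although its own level was not higher there.

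Among the other ABCA genes, *Abca7*, which moves phospholipids and takes part in phagocytosis, had 2804 reads with siCtrl against 1628 with si*Vgll3*. Its level was 6.65 TPM with siCtrl and 4.16 with si*Vgll3*, M −0.68 (−0.77 to −0.59), or 1.60-fold lower. *Abca3*, the phospholipid transporter of lung surfactant granules, had 2012 reads with siCtrl against 1322 with si*Vgll3*. Its level was 4.86 and 3.45 TPM, and the interval of its M spans −0.5. *Abca2*, a lysosomal transporter best known from myelin-forming cells, had 1677 reads with siCtrl against 1363 with si*Vgll3*, with a level of 3.26 and 2.86 TPM and an M of −0.19 (−0.29 to −0.08). All 3 thus had an M below 0, and only that of *Abca7* passed the threshold. *Abca3* was the only transporter of the 10 with 100-base stretches found in another gene (0.235%, all in *Abca17*), and *Abca17* had 0 reads in both libraries.

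The order of levels, which TPM allows because it is per length, changed between the libraries. In siCtrl it ran *Abca8a*, *Abca1*, *Abca9*, *Abca7*, *Abca3*, *Abca5*, *Abca8b*, *Abcg1*, *Abca2* and *Abca6*, and the counting intervals of neighbours overlapped for *Abca3* with *Abca5*, *Abca5* with *Abca8b*, and *Abcg1* with *Abca2*. In si*Vgll3* it ran *Abca1*, *Abca5*, *Abca7*, *Abca9*, *Abca3*, *Abca6*, *Abca2*, *Abca8a*, *Abcg1* and *Abca8b*. There, only the steps from *Abca1* to *Abca5*, from *Abca9* to *Abca3* and from *Abcg1* to *Abca8b* were free of overlap. The place of *Abca6*, 10 in siCtrl and 6 in si*Vgll3*, rests on its TPM alone. Its reads went the other way, from 629 to 468.

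**Figure D4:**
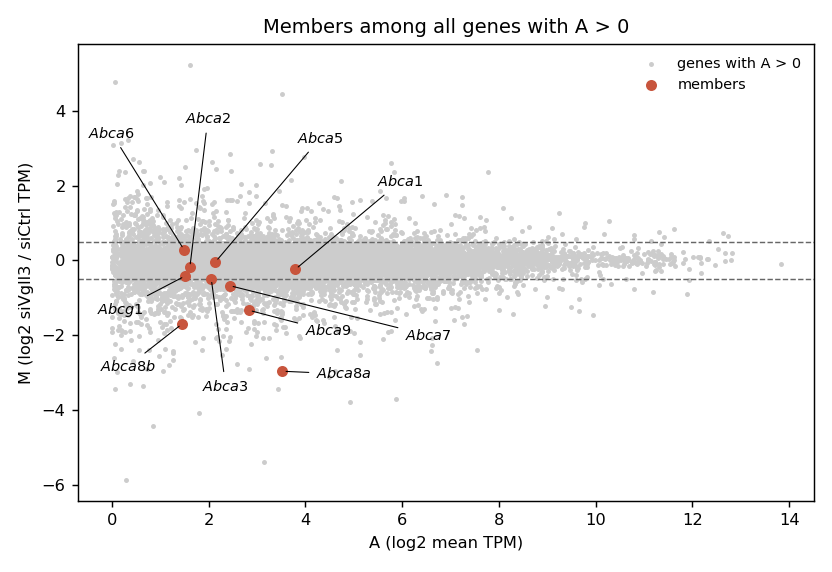
M against A (log2 mean TPM) for the 11754 genes with A > 0 (grey) and the 10 transporters (red, labelled), with dashed lines at −0.5 and 0.5. *Abca8a* lies at M −2.97, rank 13 from the lowest, and *Abca1*, *Abca2*, *Abca5*, *Abca6* and *Abcg1* lie between the lines.

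Over the ABC subfamilies A to G, 50 symbols were in the count table, 33 had reads, 28 had A > 0, and of those 6 were lower and 0 were higher. With the 10 transporters left out, 18 had A > 0, 2 were lower, 0 were higher, and the median M was −0.07. Over all genes with A > 0, 11.4% were lower and 5.73% were higher. The 2 lower genes were *Abcd4*, a lysosomal transporter needed for cobalamin use, at 10.3 TPM with siCtrl and 6.35 with si*Vgll3* (M −0.70, −0.82 to −0.59), and *Abcb6*, a porphyrin transporter, at 12.3 and 7.79 TPM (M −0.66, −0.76 to −0.57). The ABCC, ABCE, ABCF and ABCG subfamilies had 0 lower genes. Of the 16 ABCA genes in the table, *Abca12*, *Abca13*, *Abca14*, *Abca15*, *Abca16* and *Abca17* had 0 reads in both libraries.

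The list of LXRs and their target genes, which include *Abca1* and *Abcg1*, held 21 symbols. Among these are also 4 other receptor genes, *Rxra*, *Rxrb*, *Rxrg* and *Nr1h4*. In the list 17 genes had A > 0, 7 were lower and 1 was higher, beside 11.4% and 5.73% of all genes. The median M was −0.44. Without *Abca1* and *Abcg1* the median was −0.50 over 15 genes. The largest values were those of *Apoe*, a lipid-binding apolipoprotein, at 16.8 TPM with siCtrl and 5.91 with si*Vgll3* (M −1.51, −1.67 to −1.35), *Mylip*, a ubiquitin ligase (M −1.22), and *Lpl*, lipoprotein lipase (M −1.20). *Smpdl3a*, a phosphodiesterase, and *Nr1h3*, which encodes LXRα, were both at −0.80. *Nr1h2*, which encodes LXRβ, was at −0.03. *Arl4c*, a small GTPase named after its values were seen, was the 1 higher gene, at 12.8 TPM with siCtrl and 19.8 with si*Vgll3* (M 0.63, 0.56 to 0.69). Of the 17 genes, 16 had an M below 0, all but *Arl4c*, beside 6700 of the 11754 genes with A > 0. *Abca1* was nearer to 0 than the median of the list. The list was chosen with earlier results of these data known, so nothing is read from these counts.

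The genes of efflux, lipoproteins and intracellular cholesterol handling held 29 symbols, of which 24 had A > 0. Of those, 7 were lower and 0 were higher, beside 11.4% and 5.73% of all genes, and the median M was −0.42. Besides *Apoe*, the largest values were those of *Vldlr*, a lipoprotein receptor (M −0.82, −0.89 to −0.75), *Stard4*, a carrier of cholesterol in the cytosol (M −0.69) and *Gramd1b*, which moves cholesterol to the endoplasmic reticulum (M −0.66, −0.86 to −0.46). *Soat1*, which esterifies cholesterol for storage, was at 0.00 (−0.03 to 0.02). Of 12 genes for partners and regulators of the ABCA1 protein, all had A > 0, 1 was lower, 0 were higher and the median M was −0.21.

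**Figure D5:**
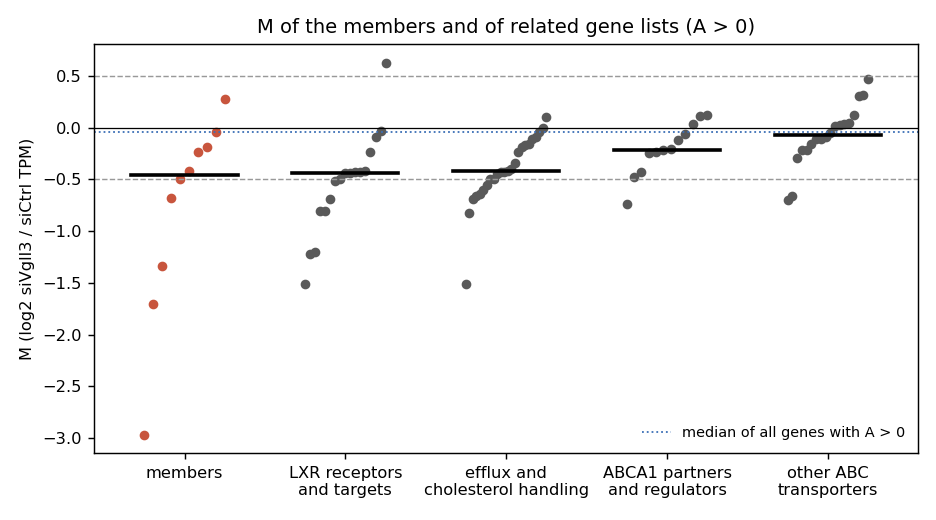
M of each gene with A > 0 in the 10 transporters (red) and in the related lists (grey), with a bar at each list's median, a dotted line at the median of all genes (−0.05) and dashed lines at −0.5 and 0.5; *Abca1* and *Abcg1* are also in the LXR and efflux lists. The medians are −0.46 for the 10 transporters, −0.44 for LXR genes, −0.42 for efflux genes, −0.21 for ABCA1 partners and −0.07 for the other ABC transporters.

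The marker genes of other cells also differed between the libraries, beside the lower ABCA genes. The 4 mesothelial markers summed to 53.2 TPM with siCtrl and 24.5 with si*Vgll3*, with *Upk3b*, *Lrrn4* and *Wt1* lower and *Msln* higher. The 8 leukocyte markers summed to 15.0 and 8.46 TPM, with 1 lower (*Lyz2*, at 10.9 and 3.13 TPM) and 2 higher (*Csf1r* and *Cd14*). The cardiomyocyte list was at 60.0 and 10.4 TPM, all of it *Tnnt2*, since its other 4 genes had 0 reads. The 5 endothelial markers summed to 24.3 and 20.0 TPM, with *Tek* lower, at 19.5 TPM with siCtrl and 13.4 with si*Vgll3*. *Pecam1* (M 0.47) and *Cdh5* (M 0.50) were above 0, while *Kdr* (M 0.97) and *Tie1* (M −0.04) had A below 0. The 5 mural markers summed to 2.11 and 1.54 TPM and the 4 Schwann ones to 2.15 and 1.77 TPM. The 4 adipocyte ones, all *Fabp4* with *Plin1* and *Cidec* at 0 reads, summed to 22.6 and 30.2 TPM. Of the fibroblast markers 4 were lower and 1 was higher, and of the 5 myofibroblast markers 1 was lower and 2 were higher. Of the 4 markers of quiescent fibroblasts with A > 0 only *Dpt* was lower, at 47.7 TPM with siCtrl and 12.8 with si*Vgll3*. With A below 0, *Scara5* had an M of −1.84 (−2.34 to −1.37) and *Pi16* of −0.15 (−0.72 to 0.41). The part of any of these cells in the levels of *Abca8a*, *Abca8b* and *Abca9* was not tested.

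The study also looked at miR-29b. The annotated 3′ UTRs of the 10 transporters were searched for TGGTGCT, the letters that pair with its seed. The mature miRNA from RefSeq is shown with its seed, bases 2 to 8, in capitals.
miR-29b-3p: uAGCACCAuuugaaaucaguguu
The site was in 0 of the 10 3′ UTRs, which run from 98 bases in *Abca7* to 3706 bases in *Abcg1*, and in 1560 of 10907 genes with A > 0 and an annotated 3′ UTR (14.3%).

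The genes with M nearest to that of *Abca8a* were *Eln*, *Adamts20*, *Oas1b*, *Ifit1* and *Atp1b2*, each within 0.065 of it on the log2 scale. Likeness here rests on 1 number from 2 libraries. *Eln*, which encodes elastin, was at 43.3 TPM with siCtrl and 5.55 with si*Vgll3*, and *Ifit1*, an interferon-induced antiviral gene, at 12.5 and 1.66 TPM. For *Adamts20*, a matrix protease, the log2 ratio of CPM was −1.36, far from its M of −2.96. Near *Abca1*, in the dense middle of the distribution, the 5 nearest genes were *Vgll4*, *Rpl41*, *Tmem147*, *Rabif* and *Acap3*, each within 0.00024 of its M.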

How the data were processed

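The authors made stranded mRNA libraries, checked reads with FastQC, trimmed them with Trimmomatic (keeping at least 36 bases), mapped them with HISAT2 (genome build mm10) and used StringTie for known genes; versions are not given in the sources used here. The authors deposited raw counts of reads per gene, not normalised, and TPM per gene, scaled by them for length and library size. M, A and 95% Clopper-Pearson intervals were computed in Python 3.11.15 with scipy 1.17.1 and pandas 2.3.3, with nothing added to TPM. With 1 library per condition no test was made. The intervals were tried on simulated counts that held counting error only. Such counts cannot show how the intervals do with variation between cultures. edgeR 4.0.16 (TMM) and DESeq2 1.42.0 (size factors) served for scaling only. Depth, 140815237 and 125789276 reads, sets the counting error only. Variation between cultures or animals was not measured.

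The 10 members, gene lists, threshold and motifs were chosen with earlier results of these data known. Named genes are the members, other ABC genes whose whole interval passes 0.5, up to 5 genes per list with M beyond 0.5 either way, and the 5 genes nearest in M to *Abca8a* and to *Abca1*. Others were named after their values were seen, and some items the rule names, with the promoter motif searches, are not reported here. Positions and transcripts came from GENCODE vM21 (GRCm38, also called mm10), matching 10 of 10 symbols, coding sequences were aligned with Biopython 1.88, and the miRNA came from RefSeq. Alternatives were CPM, TMM, DESeq2 size factors, 0.1 or 1 TPM added, other filters on A and on reads, centring, a threshold of 1, whole intervals, and shorter shared stretches.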

Additional observations from a re-analysis of the deposited data

Results flagged for a closer look

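Some genes outside the comparisons had reads but no TPM, and so no M. *Abca4*, the retinal ABCA transporter, had 6 reads in si*Vgll3* and 0 in siCtrl, and *Apoa1*, the acceptor of ABCA1 lipid, also had 6 and 0. Among markers of other cells, *Kcnj8* (mural) had 24 reads in si*Vgll3* and 0 in siCtrl and *Cd79a* (B cell) had 10 and 6. Each was listed because its count in si*Vgll3* is above that in siCtrl and above the 3 reads that a count of 0 allows. That bound does not apply to *Cd79a*, which had 6 reads in siCtrl. The differences have no replicate check, and the counts are small beside the 868 reads of *Abca8a* in the same library.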

How the results depend on the processing

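No paired analysis was possible because there is a single library on each side. *Abca8a*, *Abca8b*, *Abca9* and *Abca7* were the 4 lower genes under every alternative except A > 2, which left 6 of the 10 with 3 of them lower and *Abca8b* filtered out, and a threshold of 1, under which *Abca7* was not lower. The M of *Abca6* reversed to −0.26 with CPM, −0.27 with TMM and −0.27 with DESeq2 size factors. Filters, thresholds and the definition of A cannot change the M of a gene. Of 60 single-gene values under the alternatives that can, 51 stayed within the counting interval, 6 moved past it and 3 reversed. With 1 TPM added, which draws low genes towards 0, *Abca8a* was at −2.57, *Abca8b* at −1.18, *Abca9* at −1.15 and *Abca7* at −0.57, and *Abca1* was at −0.19 with CPM and with centring. Without a filter on A, 2103 of all genes were lower and 1428 higher. With A > 2, 393 were higher and the members' median M was −0.59. With a threshold of 1, 384 were lower and 207 higher, and with whole intervals 442 were higher; the filters and thresholds themselves set these counts. Of the *Abca3* stretches, 3.09% of 36 bases and 1.09% of 75 bases were shared. Depth limits *Abca6*, *Abca8b* and *Abcg1* most, with 468, 469 and 840 reads in si*Vgll3*, and 1 library per condition limits all of them.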

Other observations

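A few ABC transporters outside the 10 stood above 0, chosen here after their values were seen. *Abcg2*, which exports drugs and urate and marks the side population of many tissues, was at 40.1 TPM with siCtrl and 55.4 with si*Vgll3*, an M of 0.47 (0.42 to 0.51), just inside the threshold. *Abcb1b*, one of the mouse genes for the multidrug transporter P-glycoprotein, was at 13.4 and 16.7 TPM (M 0.31, 0.25 to 0.38). Its sister gene *Abcb1a* had 77 reads with siCtrl against 252 with si*Vgll3*, an M of 1.82 (1.45 to 2.21), with A below 0. *Abcc5*, an exporter of cyclic nucleotides, was at 17.3 and 21.4 TPM (M 0.31, 0.25 to 0.36). These 4 had intervals above 0, whereas *Abca8a*, *Abca8b* and *Abca9* had theirs below −1.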
